A study of Mus musculus with 1600 samples.

Results

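Thy1/Twist2-high cells are connective cells of the E15.5 mouse hind limb in which the summed level of Thy1 and Twist2 was at least 200 CPM (a gene's count scaled so that all cells have the same total). They were chosen on measured values, from the 200 E15.5 cells of a table of 480 cells in a series of 1600. Every cell had at least 1000 detected genes, 165 also had Col1a1 at 300 CPM or more, and 124 of these were under 200 CPM for the tendon gene Tnmd and under 1000 CPM for the cartilage gene Col2a1. Of these 124 connective cells, 46 were Thy1/Twist2-high, 32 were intermediate and 46 were Thy1/Twist2-low, with a sum under 20 CPM. The 92 cells of the high and low groups are compared below across all other genes. For brevity they are called high cells and low cells.

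All cells came from the hind limbs of C57BL/6 embryos carrying a SCX-GFP transgene, and the high and low groups share this strain, transgene, tissue and stage. Scx is a transcription factor gene of tendon progenitors, and no sorting of cells by GFP is described. Limbs of siblings of one litter were combined, and single cells were isolated on a Fluidigm C1 chip. The stage is therefore 1 sample, and the 5 library pools of 40 cells at E15.5 (pools 8 to 12) are a technical split in which the same 40 cell indices recur with a different pool index. No test between cells was possible and no p-value is given. Intervals of CPM cover counting error only. Those of shares of cells treat the cells as independent draws, although all came from 1 litter, and are not a test between groups.

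Twist2 encodes a basic helix-loop-helix transcription factor of mesenchyme that is strongly expressed in developing dermis, and its loss in people and mice affects skin and facial tissue. Thy1 encodes CD90, a small membrane-anchored glycoprotein used as a surface marker of fibroblasts and mesenchymal stromal cells. Loose connective tissue of the embryonic limb holds fibroblasts of dermis, fascia and the connective tissue of muscle, which lay down collagens and proteoglycans and help to pattern the tissues around them.

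The high group was led by Twist2 rather than by both genes. Twist2 (chromosome 1, 91801461 to 91848028, plus strand, GRCm38) had a count in 46 of 46 high cells, with 5.26 CPM in the lowest, 355 CPM in the median and 1847 CPM in the highest. In the low cells it lay between 0 and 18.2 CPM. Thy1 (chromosome 9, 44043384 to 44048579, plus strand, GRCm38) had a median of 5.92 CPM and a highest value of 1986 CPM in the high cells, and 17 of the 46 held no count of it. In the low cells Thy1 reached 17.5 CPM. Of the high cells, 29 had at least 20 CPM of Twist2 with Thy1 under 20, 15 had at least 20 CPM of both, and 2 had Thy1 with Twist2 under 20. These values chose the groups and are a description. Twist2 alone reached 200 CPM in 41 high cells, and Thy1 alone did so in 13. The name Thy1 and Twist2 high thus fits the sum, and both genes together reached even 20 CPM in only 15 cells.

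Near the limits, the sum was 205 CPM in the high cell closest to 200 and 180 CPM in the intermediate cell closest to it. It was 18.7 CPM in the low cell closest to 20 and 21.2 CPM in the intermediate cell closest to it. Both genes were at 0 counts in 26 of the 46 low cells. Across the 124 connective cells Thy1 and Twist2 had a Spearman rho of 0.28, and across the 46 high cells a rho of 0.035. Both values are descriptions of cells that share libraries and differ in depth. The high cells were chosen on the sum, so a cell with little Thy1 had to have much Twist2, and the reverse. That choice lowers rho in advance, so the value of 0.035 cannot tell whether the genes go together in high cells.

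**Figure D1:**
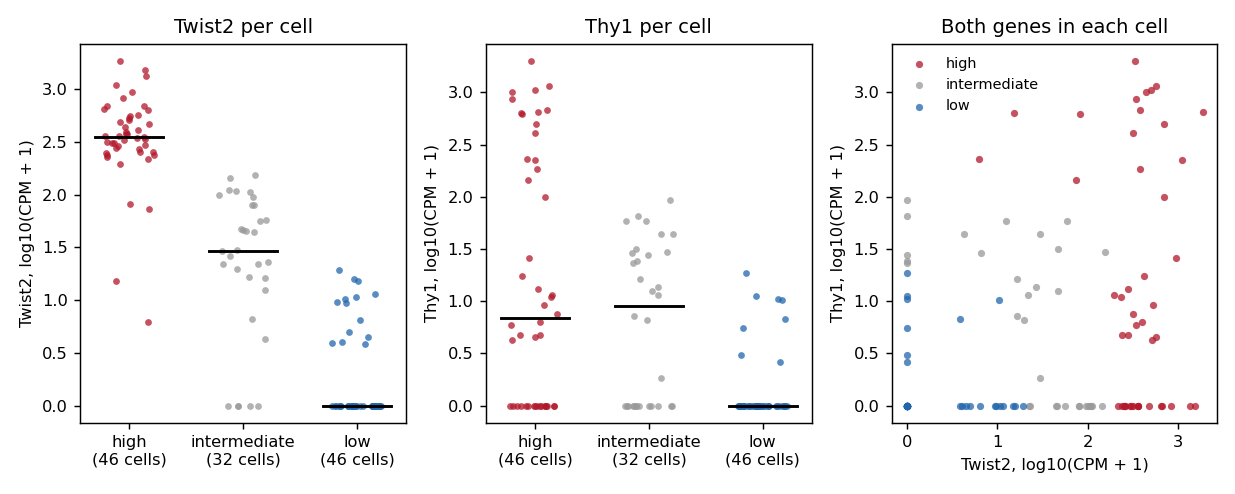
The left and middle panels give Twist2 and Thy1 per cell as log10(CPM + 1) in 46 high, 32 intermediate and 46 low cells, with a bar at the median, and the right panel sets both genes against each other. Most high cells lie to the right through Twist2, whose median was 355 CPM, while Thy1 spreads between 0 and 1986 CPM.

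Depth differed between the groups. Total counts ran from 13825 to 585709 in the high cells, with a median of 264934, and from 36683 to 612286 in the low cells, with a median of 175508. Detected genes had a median of 4764 in the high cells and 4227 in the low cells. Each pool held both groups, with 7 to 12 high cells and 6 to 12 low cells a pool. Intermediate cells were shallower, with a median of 92438 counts.

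Both groups carried genes of connective tissue that the choice of cells did not use. Col1a2, which encodes the partner chain of Col1a1, had a count in every cell of both groups, and so did Col3a1. Pdgfra, a receptor of mesenchymal cells, had a count in 42 of 46 high cells and 39 of 46 low cells. Prrx1, a homeobox gene of limb mesenchyme, had one in 42 high cells and 43 low cells. Levels of these genes lay close together. Col1a2 was at 5662 CPM in the summed high cells and 4398 CPM in the summed low cells, and Col3a1 at 3041 CPM in high cells and 2469 CPM in low cells. Pdgfra was at 333 CPM in high cells and 293 CPM in low cells.

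Genes were compared by the log2 ratio of summed CPM, with 5 added to each, for the 10189 genes detected in 10 or more of the 92 cells. A gene is called higher or lower in high cells when this ratio is at least 1 in size and has the same sign in all 5 pools. Of these genes, 236 (2.32%) were called higher in high cells and 93 (0.913%) were called lower, and the median over all genes was 0.03. With no condition on pools, 10.9% of genes had a ratio of at least 1 and 8.64% a ratio of -1 or less. A call describes these cells only and is not the outcome of a test. In simulated cells, genes without a change were called at a share near that called in the real cells. When the cells with high mitosis genes described below were left out, 141 genes were called higher, 50 of them among the 236, and 161 were called lower, 27 of them among the 93.

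The 12 largest called ratios toward high cells, among genes detected in 30% or more of the cells of the higher group and with 50 CPM there, were those of Ada, Sik3, Zfp385b, Emp2, Sgol2, Prkcb, Stk39, Zfp942, Trim59, Gap43, Ror2 and Sipa1l1. They had counts in 14 to 35 of the 46 high cells.
Prkcb, which encodes protein kinase C beta, was at 75.8 CPM in high cells (95% interval 70.9 to 81.0), with counts in 25 of 46, and at 7.83 CPM in low cells (6.10 to 9.89), with counts in 12 of 46. Sik3, a salt-inducible kinase gene, was at 64.2 CPM in high cells, with counts in 14 of 46, and at 1.68 CPM in low cells, with counts in 8. Prkcb, Sik3 and Sipa1l1 kept their call under every alternative tried. Ror2, which encodes a receptor of Wnt5a, was at 63.2 CPM in high cells, with counts in 16 of 46, and at 8.05 CPM in low cells, with counts in 11 of 46. Its call was lost in 4 of 24 alternatives. Ada, which encodes adenosine deaminase, was at 63.2 CPM in high cells and 1.12 CPM in low cells, and 1 high cell held 45.7% of the high group's counts. Sgol2, a protector of sister chromatid cohesion, was at 129 CPM in high cells and 15.1 CPM in low cells.

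The 12 largest called ratios toward low cells were those of Crip2, Col18a1, Chmp1a, Bmp2k, Tsga14, Glipr2, Gatsl2, Rad17, Snhg8, Eif2b2, Pamr1 and Tbc1d8. Crip2, a LIM-domain protein gene, was at 1.79 CPM in high cells, with counts in 11 of 46, and at 181 CPM in low cells, with counts in 19 of 46. A single low cell held 32.7% of the low group's counts. Col18a1 encodes a collagen of basement membranes and was at 11.1 CPM in high cells and 166 CPM in low cells. Its ratio lost its call in 8 of 24 alternatives, among them the one without cells holding genes of other cell types, where it was -1.88. Glipr2 kept its call in all 24, at 26.1 CPM in high cells and 156 CPM in low cells. Snhg8, a host gene of small nucleolar RNAs, was the most widely detected, with counts in 29 of 46 high cells and 30 of 46 low cells, at 25.5 CPM in high cells and 121 CPM in low cells.

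**Figure D2:**
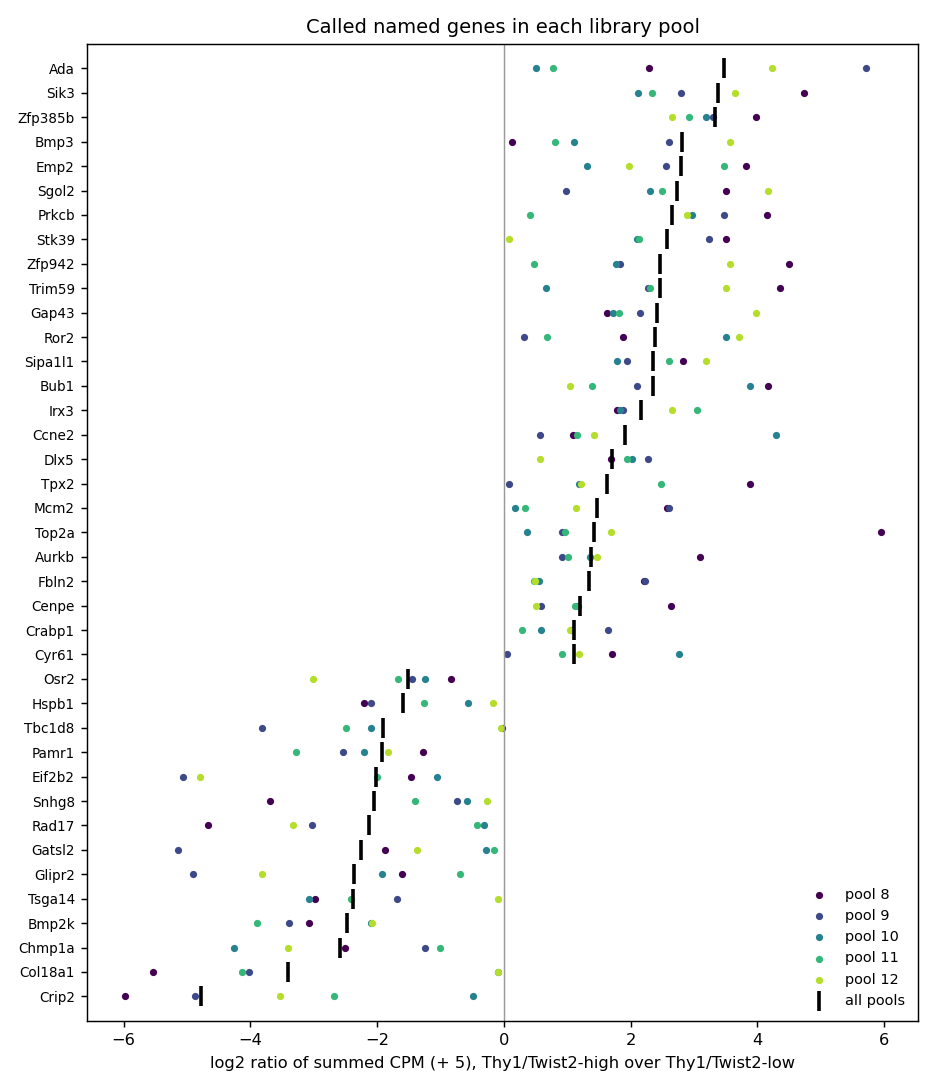
Each row is a called gene named by the rule on size or from a list, the points give its log2 ratio of summed CPM (+ 5), high cells over low cells, in each of the 5 library pools, and the bar gives the ratio over all pools. All points of a gene share a sign, as the rule for a call demands, and those of Top2a, Ada, Col18a1 and Crip2 spread over more than 5 log2 units.

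Among genes listed for dermal fibroblasts, 1 of 16 tested was called higher and 0 were called lower, beside 2.32% and 0.913% of all genes. Their median ratio was 0.52, against 0.03 over all genes. Crabp1, which encodes a cytoplasmic retinoic acid binding protein, was the member called. It was at 1054 CPM in high cells (1036 to 1073) and 486 CPM in low cells (471 to 500). By cell its values ran from 0 through a median of 560 to 5790 CPM in high cells, and from 0 through 217 to 2450 CPM in low cells. The groups overlapped up to the highest low cell, and 45 high cells and 41 low cells held a count. Crabp1 lost its call in 7 of 24 alternatives, and its ratio was 0.07 without the cells with high mitosis genes, where the median of the dermal list was -0.08.

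Twist1, the close relative of Twist2, was higher in high cells in 4 of 5 pools and was not called. It was at 184 CPM in high cells (177 to 192) and 59.5 CPM in low cells (54.5 to 64.8). Its median cell had 96.9 CPM in the high group and 11.4 CPM in the low group, and 39 high cells against 26 low cells had a count. With each cell thinned to 50000 counts, 77.3% of high cells (exact 95% interval 62.2 to 88.5) and 52.4% of low cells (36.4 to 68.0) still had one. Pool 9 went the other way, with 54.8 CPM in high cells and 67.2 CPM in low cells. Other dermal factors were uncalled. Without the condition on pools, 6 of the 16 dermal genes had a ratio of at least 1 and 0 had a ratio of -1 or less. Over all genes these shares were 10.9% and 8.64%. When the cells with high mitosis genes were left out, 1 of 12 had a ratio of at least 1, beside 14.3% of all genes, and 1 a ratio of -1 or less. Dlk1 was at 927 CPM in high cells and 925 CPM in low cells. Ebf1 was at 71.0 CPM in high cells and 94.4 CPM in low cells, and Lrig1 at 57.9 CPM in high cells and 19.6 CPM in low cells.

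In the fascia list 1 of 18 tested genes was called higher and 0 were called lower, beside 2.32% and 0.913% of all genes, and the median was -0.11. Fbln2 was called. It encodes fibulin-2, a glycoprotein of elastic fibres and basement membranes. Its level was 391 CPM in high cells (379 to 402) and 152 CPM in low cells (144 to 160). The median cell had 156 CPM in the high group and 20.4 CPM in the low group, and the highest had 2773 CPM in the high group and 900 CPM in the low group. A count was present in 41 of 46 high cells and 32 of 46 low cells. Fbln2 kept its call in 23 of 24 alternatives, and its ratio without the cells with high mitosis genes was 1.20. By pool, Fbln2 was at 233 CPM or more in high cells and between 93.8 and 264 CPM in low cells.

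Lumican and decorin, small leucine-rich proteoglycans that bind collagen fibrils, differed in the same direction and were not called. Lum was at 1213 CPM in high cells and 506 CPM in low cells, with medians by cell of 982 CPM in high cells and 201 CPM in low cells. In pool 10 it was at 1111 CPM in high cells and 1139 CPM in low cells. Dcn was at 1560 CPM in high cells and 840 CPM in low cells, with high cells above low cells in all 5 pools and a ratio of 0.89, short of 1. Ogn, the proteoglycan osteoglycin, had the other direction, with 357 CPM in high cells and 617.1 CPM in low cells. Over the 8 proteoglycan genes tested, 0 were called and the median was 0.26. Without the cells holding genes of other cell types, the ratio was 0.66 for Lum and 0.25 for Dcn.

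**Figure D3:**
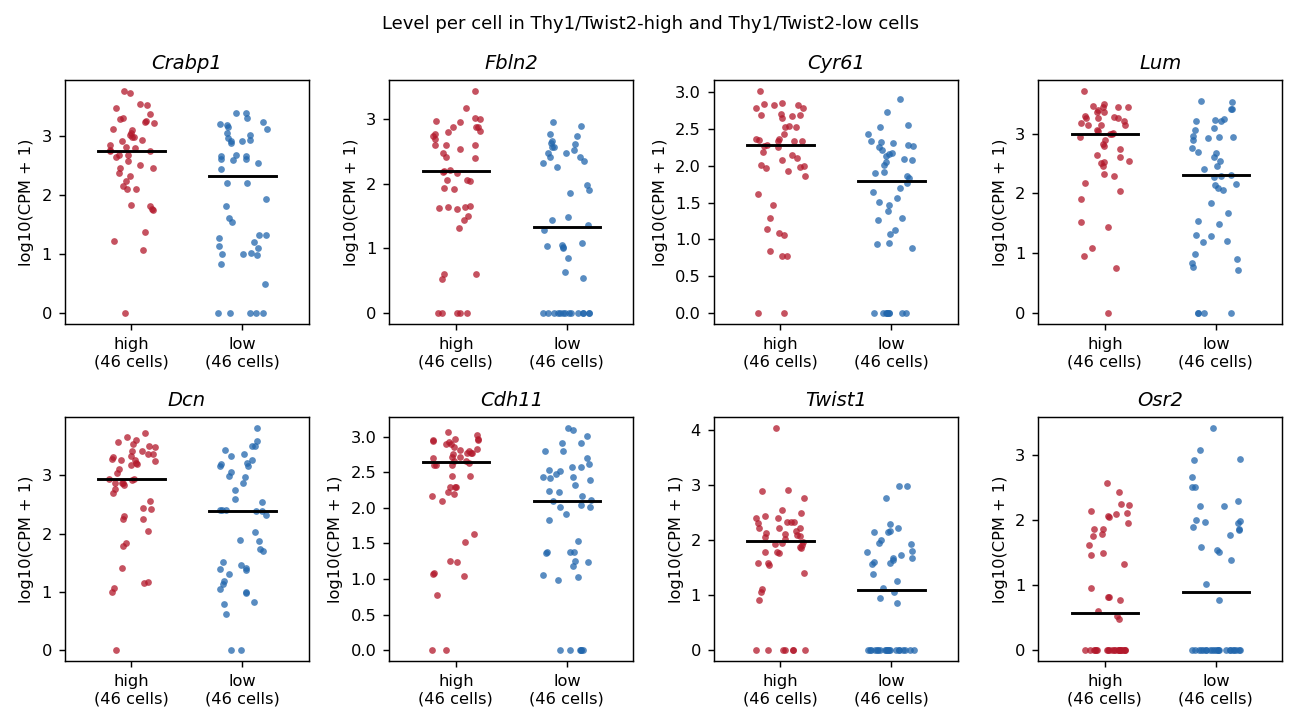
Levels per cell, as log10(CPM + 1), of 8 genes in 46 high cells (left) and 46 low cells (right), with a bar at the median. Crabp1, Fbln2 and Cyr61 were called higher and Osr2 was called lower, while Lum, Dcn, Cdh11 and Twist1 were not called, and the groups overlap in every panel.

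Of 23 genes tested for fibrillar collagens and their processing, 0 were called, and the median was 0.28. Col6a1 and Col6a2 encode chains of the microfibrillar collagen VI, and both were higher in high cells than in low cells in all 5 pools with ratios just under 1. Col6a1 was at 621.8 CPM in high cells and 313 CPM in low cells, and Col6a2 at 1025 CPM in high cells and 534 CPM in low cells. Col5a1, a chain of collagen V, was at 798 CPM in high cells and 501 CPM in low cells. The ratios of Col1a2 and Col3a1, 0.36 and 0.30, were -0.06 and -0.17 without the cells holding genes of other cell types. Of 19 elastic fibre genes tested, Fbln2 was again the 1 called, beside 2.32% of all genes called higher, and the median was -0.05.

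Among factors of muscle connective tissue, 0 of 12 tested genes were called higher and 1 was called lower, beside 2.32% and 0.913% of all genes, with a median of -0.37. Osr2, an odd-skipped zinc finger factor of limb connective tissue and joints, was at 49.1 CPM in high cells (45.1 to 53.2) and 149 CPM in low cells (141 to 157). The highest cell had 366 CPM in the high group and 2572 CPM in the low group, where it held 35.0% of the counts. The number of cells with Osr2 hardly differed, with 25 of 46 in the high group and 24 of 46 in the low group. Its ratio lay between -1.88 and -1.05 over the alternatives and kept its call in all 24. Its relative Osr1 was at 168 CPM in high cells and 132 CPM in low cells, uncalled. Tcf7l2 was at 209 CPM in high cells and 169 CPM in low cells, uncalled. Tcf4, a separate gene also listed with the basic helix-loop-helix partners, was at 1349 CPM in high cells and 853 CPM in low cells, uncalled. Tbx4, the hind limb T-box factor, was at 38.5 CPM in high cells and 87.9 CPM in low cells, and Pitx1 at 73.6 CPM in high cells and 115 CPM in low cells, both uncalled.

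Genes of the osteoblast lineage had a median of 0.93 over 7 tested, with few cells behind them. Of the 7, 1 was called higher and 0 were called lower, beside 2.32% and 0.913% of all genes. Of the 17 genes listed, 8 were at 0 counts over the high cells and 9 over the low cells, among them Sp7, Spp1 and Bglap, markers of maturing osteoblasts, in both groups. Dlx5, a homeobox gene of bone and limb, was called at 32.8 CPM in high cells and 6.60 CPM in low cells, with counts in 7 high cells and 5 low cells and 50.0% of the high group's counts in 1 cell. Runx2, the master factor of osteoblasts, was at 56.4 CPM in high cells and 21.7 CPM in low cells, uncalled. Cdh11, a mesenchymal cadherin, was broadly detected, at 483 CPM in high cells with counts in 44, and 216 CPM in low cells with counts in 40. It was not called, with 355 CPM in high cells and 380 CPM in low cells of pool 10. Its median cell had 435 CPM in the high group and 125 CPM in the low group.

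Among 14 tendon genes, 0 were called, 8 had a ratio above 0, and the median was 0.55. Mkx, a homeobox factor of tendon, was at 20.7 CPM in high cells and 7.16 CPM in low cells. Col14a1, a fibril-associated collagen, was at 87.6 CPM in high cells and 43.2 CPM in low cells. Scx lay the other way. It was at 42.6 CPM in high cells, 133 CPM in low cells and 1491 CPM in the 15 Tnmd-high cells of the same stage. A single low cell held 62.3% of the low group's Scx counts.

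Of 19 WNT ligands, inhibitors and targets tested, 0 were called, and the median was 0.56. With no condition on pools, 9 of the 19 had a ratio of at least 1 and 2 had a ratio of -1 or less, beside 10.9% and 8.64% of all genes. Axin2, a feedback target of canonical WNT signalling, was at 108 CPM in high cells, with counts in 29 of 46, and 31.8 CPM in low cells, with counts in 16 of 46. Nkd2, a feedback inhibitor, was at 86.7 CPM in high cells, with counts in 16, and 9.62 CPM in low cells, with counts in 4. Wnt5a, a ligand of noncanonical signalling, was at 229 CPM in high cells and 87.8 CPM in low cells. Genes of the Dkk family and other inhibitors went both ways. Dkk3 was at 41.4 CPM in high cells and 154 CPM in low cells, and Sfrp1 at 58.2 CPM in high cells and 121 CPM in low cells. Wif1 was at 27.5 CPM in high cells and 10.3 CPM in low cells, and Dkk1 at 8.29 CPM in high cells and 1.01 CPM in low cells. In pool 9 Axin2 was at 11.5 CPM in high cells and 32.0 CPM in low cells, and Nkd2 was at 0 CPM in high cells and 32.8 CPM in low cells. Without pool 9, 4 of 18 were called higher and 1 lower, where 5.67% of all genes were called higher, and leaving out any other single pool gave 0 or 1 called higher. Without the cells with high mitosis genes, 3 of 12 tested had a ratio of at least 1, beside 14.3% of all genes, and the median was -0.13.

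Of 18 BMP genes tested, Bmp3 was the 1 called higher and 0 were called lower, beside 2.32% and 0.913% of all genes, and the median was 0.61. Bmp3 was at 53.8 CPM in high cells and 3.36 CPM in low cells, and 83.3% of the high group's counts lay in 1 cell. Of 22 limb patterning factors, Irx3 was the 1 called higher and 0 were called lower, beside the same shares of all genes, and the median was 0.53. Without the condition on pools, 7 of the 22 had a ratio of at least 1 and 1 had a ratio of -1 or less, beside 10.9% and 8.64% of all genes. Irx3, an Iroquois homeobox gene, was at 39.6 CPM in high cells, with counts in 16 of 46, and 4.92 CPM in low cells, with counts in 8. It kept its call in each of the 23 alternatives in which it was tested. Msx1, a homeobox gene of undifferentiated mesenchyme, was at 282 CPM in high cells and 102 CPM in low cells, uncalled, with 42.8% of the high group's counts in 1 cell. Of 16 matricellular genes, Cyr61 was the 1 called higher, beside 2.32% of all genes, and the median was -0.28. Cyr61 encodes the secreted protein CCN1 and was at 251 CPM in high cells (242 to 260) and 114 CPM in low cells (107 to 121), with counts in 44 high cells and 37 low cells. The median cell had 189 CPM in the high group and 61.7 CPM in the low group, and the call was kept in 21 of 24 alternatives.

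**Figure D4:**
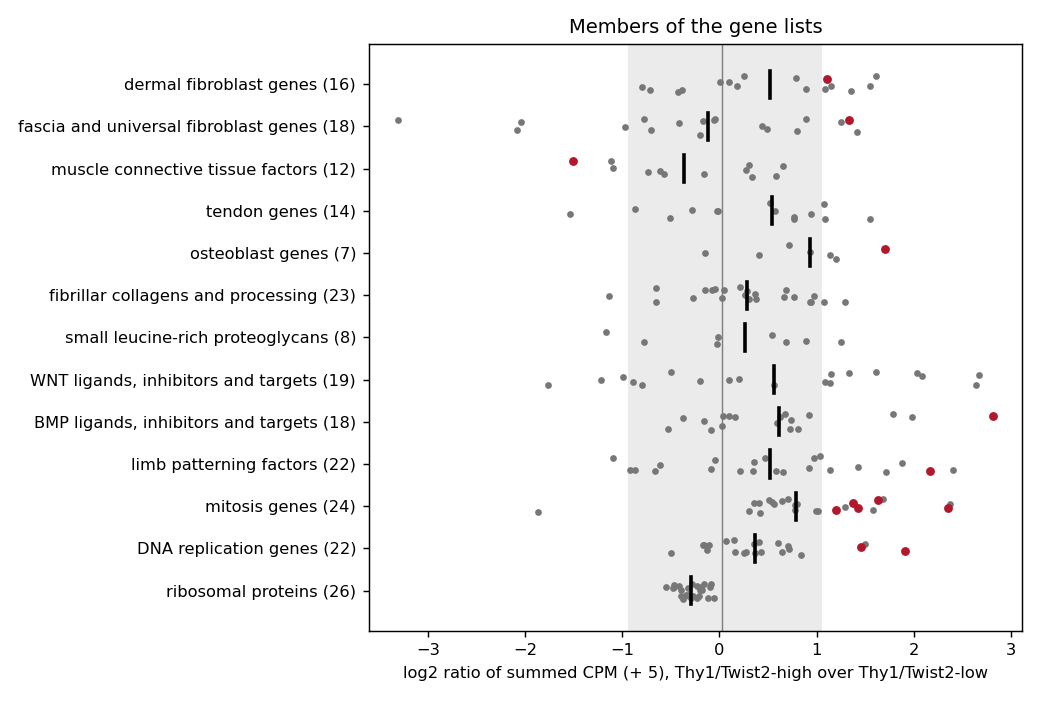
Points are the tested members of 13 gene lists (their number in brackets) by log2 ratio of summed CPM (+ 5), high cells over low cells, red where called and grey where not, and black bars are list medians. The grey band spans the 10th to 90th percentile of all 10189 genes, -0.93 to 1.05, and the mitosis list has 23 of 24 members above 0 while the ribosomal list has 0 of 26.

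Mitosis genes had the most calls of the 38 lists. Of 24 tested, 5 were called higher (Top2a, Aurkb, Bub1, Cenpe and Tpx2), 0 were called lower, 23 had a ratio above 0, and the median was 0.79, beside 2.32% of all genes called higher and a median of 0.03. The exception was Cdkn3, at 13.1 CPM in high cells and 61.2 CPM in low cells. Top2a, the topoisomerase that untangles replicated chromosomes, was at 1244 CPM in high cells (1224 to 1265) and 461 CPM in low cells (447 to 475), with counts in 46 high cells and 38 low cells. Its median cell had 646 CPM in the high group and 39.2 CPM in the low group. Tpx2, a spindle assembly factor, was at 308 CPM in high cells and 95.8 CPM in low cells. Mki67, which encodes the proliferation marker Ki-67, was at 885 CPM in high cells and 442 CPM in low cells, uncalled. In pool 9 Mki67 went the other way, with 434 CPM in high cells and 755 CPM in low cells. By pool the median of the mitosis list ran from -0.66 to 3.45, so its direction was not the same in every pool.

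Summed over the list, mitosis genes ran from 60.4 through a median of 3449 to 25276 CPM in high cells, and from 46.7 through 553 to 18200 CPM in low cells. A sum of at least 2000 CPM was found in 24 high cells and 16 low cells, so both groups held cells of either kind. Without these cells 22 high and 30 low cells remained, 1 of 21 mitosis genes was called higher, and the median was 0.09. These cells were left out on the same list, so for its own members this fall follows in part from that choice. Leaving out a pool moved the list's calls between 3, without pool 8, and 11, without pool 9. Of all genes, 4.23% were called higher without pool 8 and 5.67% without pool 9, where fewer pools had to share a sign. The part of dividing cells in the other results was looked at only by leaving out the cells with high mitosis genes. That also left fewer cells and 7974 tested genes, and no removal of as many other cells was run. Loss of dividing cells and loss of cells as such cannot be told apart there.

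DNA replication genes had 2 of 22 tested called higher and 0 called lower, beside 2.32% and 0.913% of all genes, and a median of 0.36. Mcm2, a subunit of the replicative helicase, was at 200 CPM in high cells and 69.2 CPM in low cells, and Ccne2, a cyclin of the entry into S phase, at 88.0 CPM in high cells and 19.7 CPM in low cells. Both lost their call without the cells with high mitosis genes. Ribosomal protein genes had 0 of 26 called and a median of -0.29, and each of the 26 had a ratio below 0. Summed, they were at 42847 CPM in high cells and 52563 CPM in low cells.

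**Figure D5:**
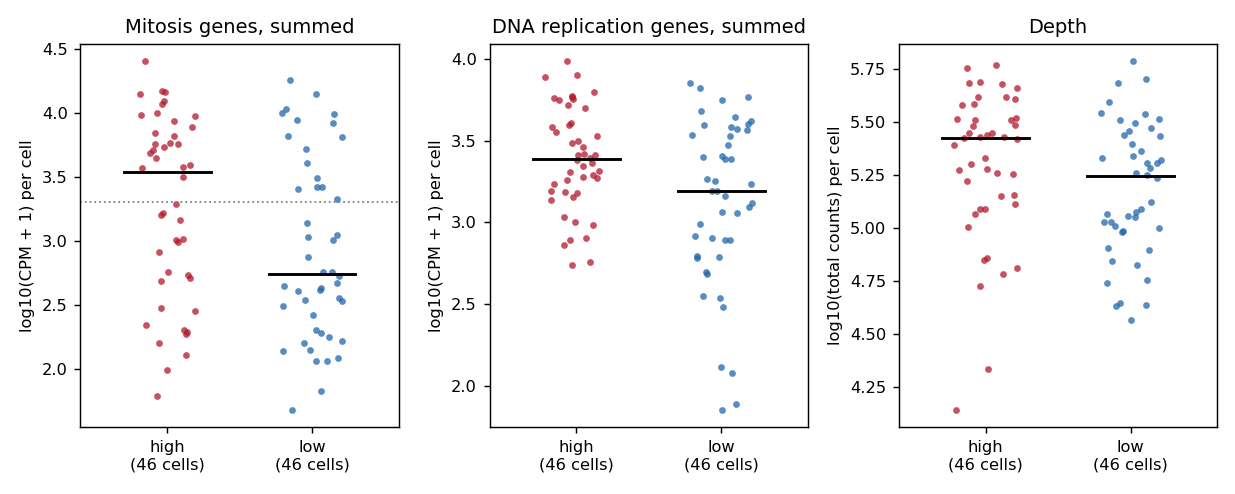
Per cell, the panels show the summed CPM of mitosis genes and of DNA replication genes as log10(CPM + 1), and total counts as log10, in 46 high cells (left) and 46 low cells (right), with a bar at the median and a dotted line at 2000 CPM. The median mitosis sum was 3449 CPM in high cells and 553 CPM in low cells, and the median total was 264934 counts in high cells and 175508 counts in low cells.

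High summed levels of genes of other cell types were found in more low cells than high cells, while a count of such genes was present in more high cells than low cells for all lists but endothelium. Lists for epidermis, muscle, endothelium, pericytes, immune cells, red cells and neural or pigment cells were summed in each cell, and at least 1 list reached 2000 CPM in 3 of 46 high cells and 12 of 46 low cells. Cells with no count of a list numbered 13 high and 18 low for muscle, 7 high and 18 low for immune cells, 16 high and 11 low for endothelium, and 0 high and 2 low for epidermis. They numbered 0 high and 3 low for pericytes, 37 high and 42 low for red cells, and 2 high and 7 low for neural or pigment cells, beside the greater depth of high cells. The 16 epidermis genes together ran from 7.61 to 3359 CPM in high cells and from 0 to 19623 CPM in low cells, with medians of 89.6 CPM in high cells and 84.6 CPM in low cells. Of 13 tested, 12 had a ratio of -1 or less, beside 8.64% of all genes, and none was called. Krt8 was at 0 in low cells. The 17 muscle genes ran from 0 to 362 CPM in high cells and from 0 to 17491 CPM in low cells, with Tnnt3, Ckm, Myog and Myod1 at 0 in high cells and Ckm at 0 in low cells. A single low cell held 94.6% of the low group's counts of Ttn. The 12 endothelial genes ran from 0 to 1136 CPM in high cells and from 0 to 5170 CPM in low cells, with none at 0 over either group. The 14 immune genes ran from 0 to 22295 CPM in high cells and from 0 to 19479 CPM in low cells, with Ptprc, Csf1r, Cd52, Lyz2, Mcpt4 and Cd3e at 0 in high cells and Mcpt4 and Cd3e at 0 in low cells. Other immune genes were present in both groups. Cma1 was at 526 CPM in high cells and 323 CPM in low cells, and Cpa3 at 214 CPM in high cells and 278 CPM in low cells. Of 4 neural or pigment genes tested, 4 had a ratio above 0. Stmn2 among them was at 55.6 CPM in high cells and 0.336 CPM in low cells. Without the 15 cells in which a list reached 2000 CPM, 334 genes were called higher, 148 of them among the 236, and 88 lower, 35 of them among the 93.

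Within the high group, cells were also set apart by Thy1, a split chosen after the values were seen. The 17 high cells with at least 20 CPM of Thy1, called Thy1-positive below, had a median depth of 262890 counts, and the 29 with less had 266979. Of these 29 others, 12 also held a count of Thy1, and by the rule on the sum they were chosen mainly through Twist2. Crabp1 was at 1570 CPM in the Thy1-positive cells and 704 CPM in the others, and Lum at 1595 CPM in the Thy1-positive cells and 953 CPM in the others. Twist1 was at 152 CPM in the Thy1-positive cells and 206 CPM in the others. Fbln2 hardly differed, at 435 CPM in the Thy1-positive cells and 361 CPM in the others. The dermal list had a median ratio of -0.02 between these subsets, beside -0.04 over 8335 genes.

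A sum of at least 200 CPM was also met outside the connective cells. It was reached by 2 of 15 Tnmd-high cells, 5 of 26 Col2a1-high cells and 5 of 35 other cells at E15.5. At E12.5 it was reached by 15 of 158 cells, of which 4 met the other limits, and at E10.5 by 5 of 119, of which 0 did. Thy1 had a count in 1 E10.5 cell, 2 E12.5 cells and 93 of the 200 E15.5 cells, and Twist2 in 41 E10.5 cells, 74 E12.5 cells and 129 E15.5 cells. Stages were made from different litters, so stage and litter cannot be told apart. Fbln2 was at 391 CPM in high cells, 174 CPM in Tnmd-high cells and 70.3 CPM in Col2a1-high cells, and Crabp1 at 1054 CPM in high cells, 498 CPM in Tnmd-high cells and 659 CPM in Col2a1-high cells. No test of these differences was possible.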

How the data were processed

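Per the labels' protocols, cells of mouse hind limbs went through the Fluidigm C1 and Nextera XT. The authors deposited raw counts per gene and cell, whole numbers with differing totals. The submitters' processing notes name Bowtie2, featureCounts and mm10. Tool versions, gene annotation, strand and molecular identifiers were not given in the sources used here. Counts were therefore treated as reads, in which PCR copies are not separate molecules. The series has 1120 more samples, which were not analysed here.

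Gene entries numbered 22738 for 22092 symbols, and the 298 repeated symbols held 0.101% of counts. Groups followed the limits in the text, with CPM computed from each cell's total. Counts were summed over the cells of a group and set in CPM, and log2 ratios and calls came from CPM with 5 added. Intervals are exact Poisson for sums and exact Clopper-Pearson for shares, at 95%. Shares were taken after thinning to 50000 counts, which left out 2 high and 4 low cells. No doublet caller was run. Gene coordinates are those of GENCODE for GRCm38. Python 3.11.15, pandas 2.3.3, scipy 1.17.1, R 4.3.3 and edgeR 4.0.16 (TMM factors only) were used.

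By rule, the text names the 12 largest ratios each way among called genes detected in at least 30% of cells and with 50 CPM in the higher group, and up to 4 called members a list and direction with at least 20 CPM. All other names were picked once values were known. The 38 lists held 658 entries for 601 symbols, of which 2 were found under another symbol and 4 were not matched. Members and lists were chosen with earlier results of these data known. The method was tested on simulated data: it missed part of the strongly changed genes, and it called genes without a change at a share near that called in the real cells, so a call describes these cells only. Alternatives covered scaling, filters, thinning, the limits of the groups, each pool and single cells.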

Additional observations from a re-analysis of the deposited data

How the results depend on the processing

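Of 24 alternatives, 3 were chosen after seeing the data: without cells with mitosis genes at 2000 CPM, the mean of the ratios within pools, and cells with at least 100000 counts. Against 236 genes called higher and 93 called lower, adding 20 CPM gave 128 higher and 54 lower. Low cells at 0 CPM gave 559 called higher. High cells of at least 400 CPM gave 325 called lower. High cells chosen by Thy1 alone, 13 cells, gave 666 higher and 774 lower. A pool counted toward a shared sign only if it held at least 3 cells of each group. With these 13 cells, only pools 10 and 12 did. Pool 9 fell short for high cells of at least 400 CPM, and pool 10 for low cells at 0 CPM. Fewer pools thus had to share a sign under each of these limits, so their counts are not comparable with 236 and 93. Leaving out the cells with high mitosis genes gave 141 higher and 161 lower. Leaving out each pool in turn gave 344 to 545 higher and 166 to 286 lower, where fewer pools had to share a sign; without pool 9 it was 545 higher and 191 lower. TMM factors gave 230 higher and 96 lower. The direction of Cenpe turned without the cells with high mitosis genes, to -1.38; Cenpe is itself on the list by which those cells were left out. Of 909 values of 39 called named genes, without Thy1 and Twist2, 803 kept their call, 105 lost it and 1 turned. In all, 7 genes kept it wherever tested. Of 888 list medians, 833 stayed within 1 SD over pools. The cause of these changes was not tested, other than through the cells each alternative leaves out. No paired analysis was possible because each stage is 1 sample and no replicate number is shared by cells of the groups. The mean of the ratios within pools set the groups side by side inside each pool and gave 274 higher and 109 lower. Depth limits genes of few cells: at the median depth of a low cell, 1 count is several CPM.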

Other observations

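Lists not described above had few calls, where 2.32% of all genes were called higher and 0.913% lower. Of 19 immediate-early and stress genes, Hspb1 was called lower and the median was 0.53. Hspb1, a small heat shock protein gene, was at 9.23 CPM in high cells and 38.0 CPM in low cells, with 77.8% of the high group's counts in 1 cell. Of 10 retinoid genes, Crabp1 was the 1 called higher and the median was 0.09. The bHLH partners and Id genes had 0 of 12 called and a median of 0.70, with Hes1, a target of Notch signalling, at 680 CPM in high cells and 398 CPM in low cells. EMT factors had 0 of 12 called (median 0.35), nuclear factor I and other maturation genes 0 of 9 (0.36), and chemokine and complement genes 0 of 9 (0.39). Hedgehog genes had 0 of 7 called (median -0.04), FGF genes 0 of 12 (-0.17), TGF-beta and PDGF genes 0 of 12 (-0.44), IGF genes 0 of 13 (-0.16) and adipocyte progenitor genes 0 of 10 (-0.19). Mesenchymal surface genes had 0 of 20 called (median 0.09), Hox genes 0 of 9 (-0.13), cell cycle inhibitors 0 of 11 (0.08), cartilage genes 0 of 10 and joint genes 0 of 9. None of the pericyte, immune, red cell and neural or pigment cell genes was called.

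Intermediate cells, at a median of 56.1 CPM for the sum of Thy1 and Twist2, lay between the groups for some genes and below or above both for others. Lum was at 1213 CPM in high cells, 285 CPM in intermediate cells and 506 CPM in low cells, and Crabp1 at 1054 CPM in high cells, 258 CPM in intermediate cells and 486 CPM in low cells. Between the groups lay Twist1, at 184 CPM in high cells, 111 CPM in intermediate cells and 59.5 CPM in low cells, and Cdh11, at 483 CPM in high cells, 258 CPM in intermediate cells and 216 CPM in low cells. Wnt5a was at 229 CPM in high cells, 174 CPM in intermediate cells and 87.8 CPM in low cells. Above both groups lay Mki67, at 885 CPM in high cells, 970 CPM in intermediate cells and 442 CPM in low cells. So did Crip2, at 1.79 CPM in high cells, 233 CPM in intermediate cells and 181 CPM in low cells. Col18a1 was at 11.1 CPM in high cells, 275 CPM in intermediate cells and 166 CPM in low cells. Intermediate cells had the lowest depth of the 3 groups. In a shallow cell 1 count of Thy1 or Twist2 can exceed 20 CPM, so the limits themselves tie the groups to depth. The shallowest intermediate cell, with 9163 counts, was at 109 CPM of Twist2 and 0 CPM of Thy1. The part of depth in these values was not tested.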
